A study of Rattus norvegicus with 48 samples.

Results

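The miRNAs that mark the amygdala and the ventral striatum were compared in saline rats, the controls of a study of prenatal ethanol and social enrichment. The members were the 24 saline libraries of the 48 in the series, 12 from each region, chosen by their labels and not by any measured value. All libraries came from Long Evans rats at postnatal day 42. The dams of the rats described here were injected intraperitoneally with saline 2 times on gestational day 12, and the pups were weaned on day 21. From then on the non-enriched rats lived with littermates of their own sex, and the socially-enriched rats lived with unfamiliar rats of the same sex and age that were born to an untreated dam. Every rat, in both regions and both housing groups, had gone through a social interaction test and was anesthetized with ketamine and xylazine before the brain was taken. Each library was made from a pool of RNA of 3 rats of one sex and housing group, with 3 pools for each of the 4 combinations of sex and housing in each region, so the p-values below measure the spread between pools. Both regions were dissected whole from the same rats, and the sources used here do not state whether a pool held the same rats in both regions. Libraries were sequenced in sets of 8, which the labels do not name, so the sets could not be used as a batch.

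A mature miRNA is a short RNA cut from one arm (5p or 3p) of a hairpin precursor, and it lowers the output of messenger RNAs that pair with its seed, bases 2 to 8. The amygdala is best known for its part in fear, emotion and social behavior, and the principal neurons of its basolateral part are glutamatergic. The ventral striatum, which includes the nucleus accumbens, is best known for reward and motivation, and its principal cells are GABAergic medium spiny neurons.

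Values are RPM, the reads of a miRBase name scaled to a fixed total, in which the mature and the precursor names of a library each add up to 1000000. Mature reads, estimated from the RPM that 1 read was worth in each library, ranged from 415332 to 1287697 in the amygdala and from 739464 to 1370407 in the ventral striatum, and the 4 libraries under 600000 reads were all from the amygdala. With a floor of 3 reads, a mature name could be told from 0 above 2.33 to 7.22 RPM in the amygdala and above 2.19 to 4.06 RPM in the ventral striatum, which covers counting error only. No list of miRNAs that defines either region was at hand, so the region labels were not checked against markers. Differences below are in log2(RPM + 1), amygdala minus ventral striatum, fitted with limma over the 24 libraries, and a name is called where the Benjamini-Hochberg adjusted p was under 0.05. The scale understates the change of names near or under 1 RPM. Because each pool held a whole dissected region, fewer cells of a type and less of a miRNA per cell cannot be told apart in any of these values.

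In 4 libraries, all from socially-enriched rats, the values went partly against the region labels. On the second principal component of the 24 libraries, led by miR-489-3p and both arms of mir-653, the libraries labelled ventral striatum lay from -6.17 to -1.02 except replicate 2 of socially-enriched females (0.68) and of socially-enriched males (2.24), which lay on the side of the amygdala. The amygdala libraries of the same sex, housing and number were the only ones of their region on the other side (-2.11 and -0.38). Within both of these same-numbered pairs the library labelled amygdala held more of the 4 miR-489 and miR-653 arms, with 30.0 against 16.4 RPM in females and 27.6 against 8.11 RPM in males, whereas the ventral striatum held more in the other 10 pairs. Of the 46 mature names called below, 13 in the female and 18 in the male pair had the opposite order to the fitted difference, beside 1 to 9 in the other pairs. All 4 libraries were kept as labelled, and whether their labels are right was not tested. Without them, an alternative chosen after seeing the data, 72 mature names were called (22 higher in the amygdala and 50 higher in the ventral striatum), 41 of the 46 among them, and 74 precursors, 42 of the 45 described below among them. Every one of the 46 and 45 kept its sign. Because these libraries were picked on levels that differ between the regions, the higher counts are no support for the difference. Not called without them were miR-103-3p, miR-384-5p, miR-676, miR-708-3p and miR-764-3p, with adjusted p from 0.0502 to 0.116, and the precursors mir-384, mir-676 and mir-764.

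Of the 46 mature names called, 41 were matched by name to a RefSeq sequence of GRCr8, as were 461 of the 499 mature names tested, and miR-598-3p, miR-320-3p, miR-99a-5p, miR-301a-3p and miR-879-5p were not matched. A selection of the called sequences is shown here, 5′ to 3′, with the seed in capitals. It is not a ranking, since some called names with larger differences are left out, such as miR-3544 (-1.59), miR-543-3p (-0.84), miR-496-3p (0.82) and miR-592 (0.71). The first set was higher in the ventral striatum, led by both arms of the neighboring hairpins mir-489 and mir-653.
miR-489-3p: aUGACAUCacauauauggcagc
miR-489-5p: uGUCGUAUgcgugaugacacguuc
miR-653-5p: uUGAAACAuucucuacugaac
miR-653-3p: uUCACUGGgguuuguuucacua
miR-187-3p: uCGUGUCUuguguugcagccgg
miR-764-3p: gAGGAGGCcauaguggcaacugu
miR-153-3p: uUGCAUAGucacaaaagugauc
miR-149-5p: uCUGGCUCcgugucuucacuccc
miR-101b-3p: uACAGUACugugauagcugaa

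The second set was higher in the amygdala.
miR-184: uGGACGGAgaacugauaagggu
miR-31a-5p: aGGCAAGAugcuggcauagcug
miR-935: cCAGUUACcgcuuccgcuaccgc
miR-7a-2-3p: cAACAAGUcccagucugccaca
miR-221-5p: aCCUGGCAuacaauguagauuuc
miR-222-3p: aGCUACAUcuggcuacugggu
miR-146b-5p: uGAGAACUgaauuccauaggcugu
miR-23a-3p: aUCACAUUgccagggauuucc
miR-27a-3p: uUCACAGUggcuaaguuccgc

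In GRCr8, miR-489-3p lies at chr4:32648063-32648084 (minus strand) and miR-653-5p at chr4:32647455-32647475 (minus strand), both within the span of Calcr, the gene of the calcitonin receptor. The position of miR-187-3p is chr18:16005964-16005985 (minus strand), outside the span of any other gene of the annotation. Mature miR-764-3p lies at chrX:115490702-115490724 (plus strand) within Htr2c, the gene of the serotonin 2C receptor, and miR-153-3p lies at chr6:144306646-144306667 (plus strand) within Ptprn2, which codes for a protein of secretory vesicles. Of the second set, miR-184 lies at chr8:99222991-99223012 (minus strand) and miR-31a-5p at chr5:108714906-108714927 (minus strand). The position of miR-935 is chr1:74671223-74671245 (minus strand), within Cacng8, which codes for an auxiliary subunit of AMPA receptors, and that of miR-146b-5p is chr1:255144874-255144897 (plus strand). Whether these positions are exonic or intronic was not looked up, since only gene spans were at hand.

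The regions differed in a small part of the miRNAs, mostly by modest amounts. Among the 499 mature names tested, 46 were called (9.22%), 19 of them higher in the amygdala (3.81%) and 27 higher in the ventral striatum (5.41%). Names at an unadjusted p under 0.05 numbered 119. Rescaled by median-ratio size factors, 47 mature names were called, 23 higher in the amygdala and 24 higher in the ventral striatum, so the balance of directions depended on the scaling. The median size of the 46 differences corresponded to 1.38-fold, beside 1.14-fold over all mature names tested, and 29 of them were under 1.5-fold. A difference of at least 2-fold was found for 8 called names (1.6% of those tested), 6 higher in the ventral striatum and 2 higher in the amygdala, of which miR-133b-3p was at the limit of detection. No mature name had all 12 libraries of one region above all 12 of the other (0.0%). The 46 names together held 7.07% of the mature signal, and 1 of the 20 most abundant names was called.

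**Figure D1:**
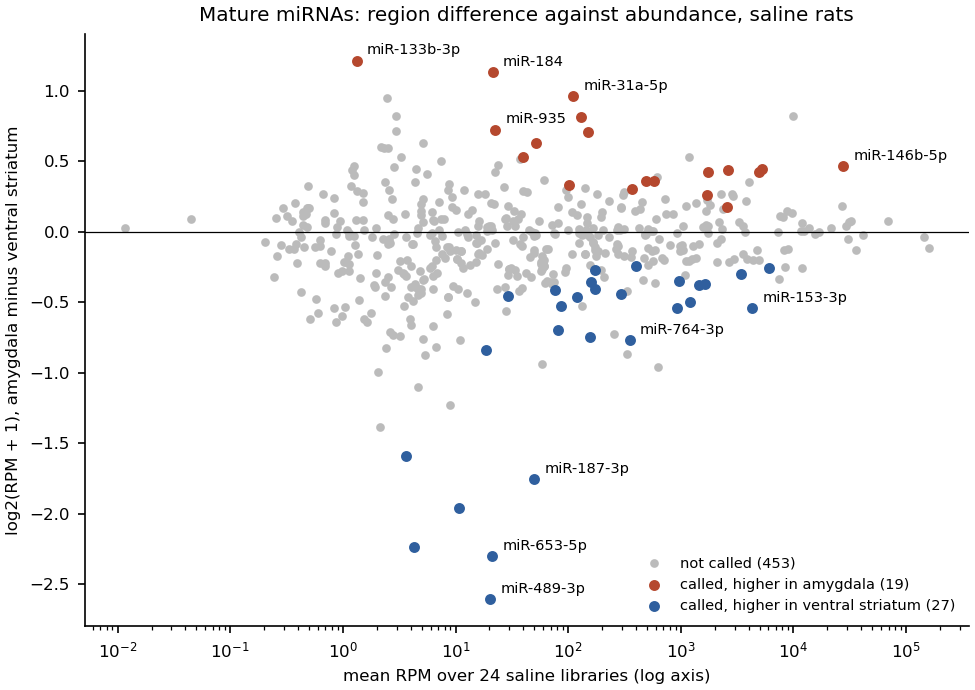
Each point is a mature miRNA, with its mean RPM over the 24 saline libraries on a log axis and its fitted difference in log2(RPM + 1), amygdala minus ventral striatum, on the vertical axis. Of the 499 names, 19 in red were called higher in the amygdala and 27 in blue higher in the ventral striatum, and the lowest points are miR-489-3p at -2.61 and miR-653-5p at -2.30.

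The largest differences were those of mir-489 and mir-653, whose hairpins are neighbors within Calcr and whose 4 mature arms were all called higher in the ventral striatum. In single libraries miR-489-3p ranged from 0 to 11.1 RPM (median 4.81) in the amygdala and 2.70 to 78.4 RPM (median 36.3) in the ventral striatum. It was above every amygdala library in 10 of the 12 ventral striatum libraries, and the other 2, both from socially-enriched rats, lay within the amygdala range at 4.84 RPM (females, replicate 2) and 2.70 RPM (males, replicate 2). Its difference was -2.61 ± 0.55 (SE), adjusted p = 0.00517. For miR-653-5p the range was 0 to 12.9 RPM (median 6.64) in the amygdala and 4.06 to 71.3 RPM (median 40.3) in the ventral striatum, and again 10 of 12 ventral striatum libraries stood above the whole amygdala. The difference of miR-653-5p was -2.30 ± 0.45 (SE), adjusted p = 0.00364. The other arms, which were read less often, had differences of -2.24 for miR-489-5p (adjusted p = 0.000627) and -1.96 for miR-653-3p (adjusted p = 0.0235). No amygdala library held more than 3 reads of miR-489-5p, against 10 of 12 ventral striatum libraries, so its fitted value depends on the pseudocount and is not a bound on the fold.

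Summed over the 4 arms, the locus gave 0 to 30.0 RPM (median 20.8) in the amygdala and 8.11 to 197 RPM (median 109) in the ventral striatum. The same 2 socially-enriched ventral striatum libraries were the lowest of their region in this sum, and the amygdala libraries of the same sex and number were the highest of theirs. Without these 4 libraries the difference was -3.32 ± 0.51 (SE, adjusted p = 0.00085) for miR-489-3p and -2.84 ± 0.44 (SE, adjusted p = 0.00085) for miR-653-5p. The libraries were picked on a component led by these same arms. The larger differences and smaller p therefore follow from the choice and are no support. The precursor names, which are counted from short reads of the same libraries, had differences close to those of the arms. They were -2.62 ± 0.51 (SE), adjusted p = 0.00364 for mir-489 and -2.49 ± 0.51 (SE), adjusted p = 0.00404 for mir-653. The region difference of miR-653-5p was -1.23 in socially-enriched and -3.37 in non-enriched rats, and the limma test of that difference gave an unadjusted p of 0.0291. For miR-489-3p the differences were -1.47 and -3.74. Neither was past the threshold (limma, Benjamini-Hochberg adjusted p = 0.992 for both).

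Next in size was miR-187-3p, which ranged from 11.6 to 29.5 RPM (median 18.8) in the amygdala and 19.1 to 138 RPM (median 88.1) in the ventral striatum. All but 1 of the 12 ventral striatum libraries stood above every amygdala library, and the exception was the third female socially-enriched library at 19.1 RPM. The difference was -1.75 ± 0.23 (SE), adjusted p = 0.000165, and its precursor mir-187 differed by -1.87 ± 0.23 (SE), adjusted p = 0.000104. The remaining name at 2-fold or more was miR-3544, at -1.59 (adjusted p = 0.00449), but it was read rarely. More than 3 reads of it were held by 9 ventral striatum libraries and, in the amygdala, only by male socially-enriched replicate 3 (5.79 RPM). Its hairpin lies opposite that of mir-337 on the other strand of chromosome 6, and whether the counting used the strand is not stated in the sources used here.

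Among the moderate differences, the brain-enriched miR-598-3p ranged from 69.8 to 174 RPM (median 115) in the amygdala and 128 to 260.2 RPM (median 198) in the ventral striatum. The regions overlapped in 3 ventral striatum and 5 amygdala libraries, and the difference was -0.75 ± 0.15 (SE), adjusted p = 0.00384. Its precursor mir-598-1, at 89.7 to 215 RPM (median 127) in the amygdala and 215 to 308 RPM (median 244) in the ventral striatum, was the single name of the 907 mature and precursor names tested whose regions did not overlap, although its highest amygdala library and its lowest ventral striatum library were close. Its difference was -0.99 ± 0.12 (SE), adjusted p = 0.000104, and the second copy, mir-598-2, was called as well (-0.71).

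Abundant names were among those higher in the ventral striatum. Mature miR-153-3p, known to target messenger RNAs of vesicle release such as that of Snap25, had 2107 to 4805 RPM (median 3563) in the amygdala and 3637 to 7042 RPM (median 4992) in the ventral striatum. Its difference was -0.54 ± 0.11 (SE), adjusted p = 0.00384, and 10 amygdala libraries lay below every ventral striatum library. For miR-149-5p, from within the proteoglycan gene Gpc1, the range was 592 to 1018 RPM (median 673) in the amygdala and 710.0 to 1337 RPM (median 1122) in the ventral striatum. In 9 ventral striatum libraries it exceeded the whole amygdala, and its difference was -0.54 ± 0.11 (SE), adjusted p = 0.00384. The family of miR-101b-3p is known to target the histone methyltransferase Ezh2, and this name had 55.4 to 80.1 RPM (median 68.4) in the amygdala and 77.2 to 132 RPM (median 100.4) in the ventral striatum. Only 1 ventral striatum library of miR-101b-3p fell within the amygdala range, and the difference was -0.53 ± 0.10 (SE), adjusted p = 0.00293.

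Both miR-764-3p within Htr2c (-0.77, adjusted p = 0.0413) and miR-543-3p (-0.84, adjusted p = 0.0172) were also higher in the ventral striatum. The regions of miR-764-3p overlapped widely, with 104 to 495 RPM (median 249.8) in the amygdala and 287 to 611 RPM (median 428) in the ventral striatum. Smaller called differences in the same direction belonged to miR-16-5p (-0.26), miR-103-3p (-0.30), miR-409b (-0.37) and miR-487b-3p (-0.37), which with miR-153-3p were the most abundant names called there. The hairpin of miR-409b overlaps that of mir-409a on the other strand, so the limit given for miR-3544 holds here too. Mature miR-409b averaged 1640 RPM, beside 224 RPM for the precursor mir-409b and 1459 RPM for mir-409a. From which hairpin its reads came was not tested. For miR-16-5p the values were 4995 to 6705 RPM (median 5341) in the amygdala and 5421 to 8206 RPM (median 6466) in the ventral striatum, with wide overlap.

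**Figure D2:**
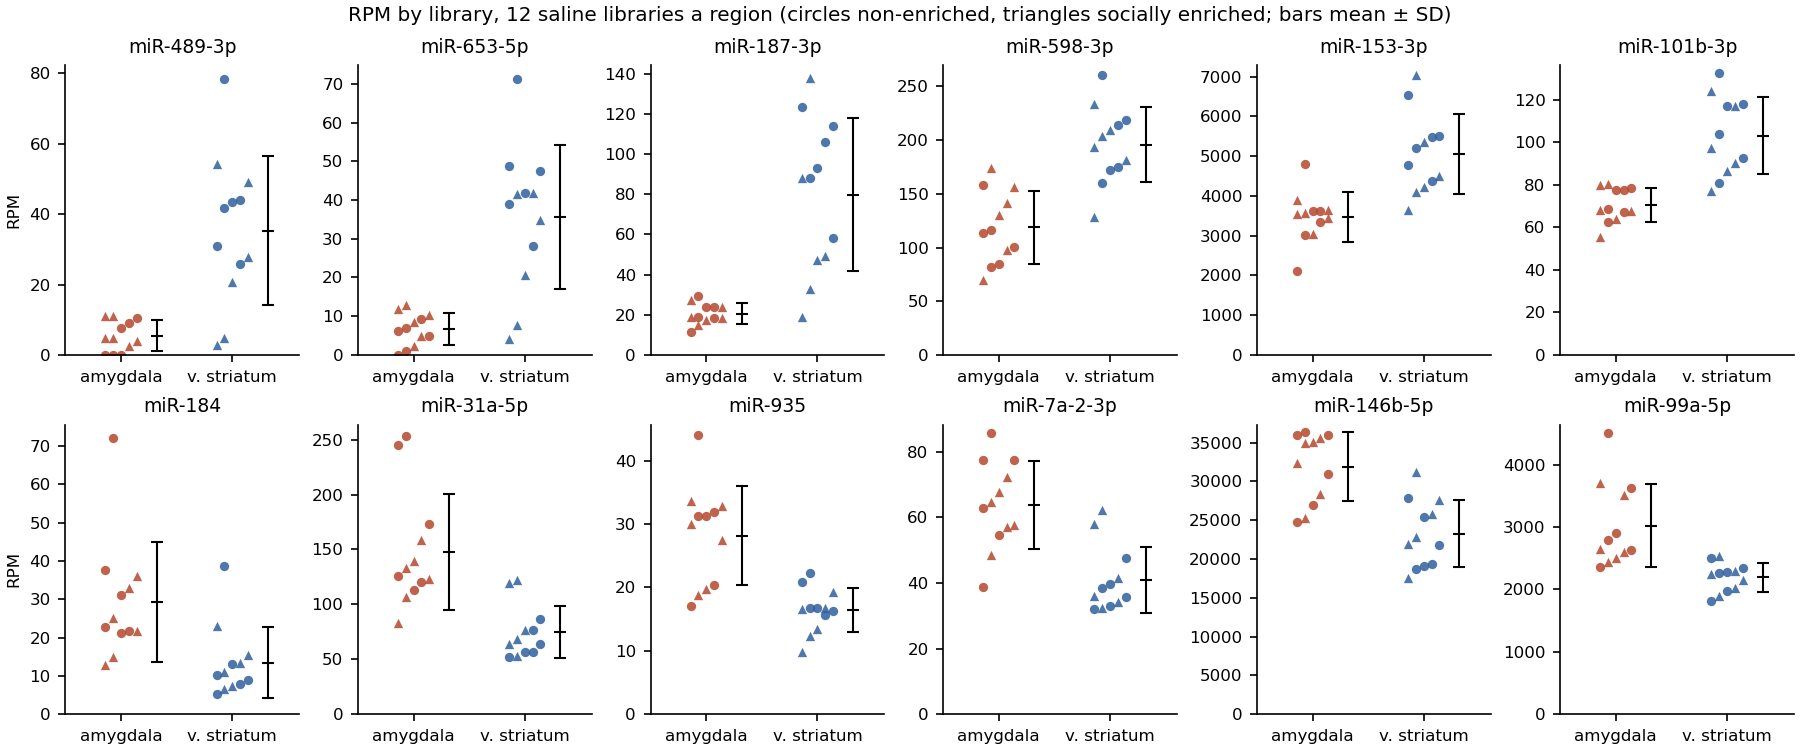
Each panel gives the RPM of one mature miRNA in each saline library, with the amygdala in red and the ventral striatum in blue, circles for non-enriched and triangles for socially-enriched rats, and bars for the mean ± SD of 12 libraries. In the upper row the ventral striatum is higher and 2 socially-enriched libraries of miR-489-3p and miR-653-5p fall among the amygdala libraries, and in the lower row the amygdala is higher with overlap of the regions in every panel.

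Of the names higher in the amygdala, miR-184 had the largest difference among those above 3 reads in most libraries. It ranged from 12.9 to 72.3 RPM (median 23.9) in the amygdala and 5.31 to 38.8 RPM (median 10.6) in the ventral striatum. The regions overlapped: 7 ventral striatum libraries lay below the whole amygdala, and 1 amygdala library, female non-enriched replicate 2, lay above the whole ventral striatum. The difference was 1.13 ± 0.25 (SE), adjusted p = 0.00726, and mir-184 differed by 1.09 ± 0.24 (SE), adjusted p = 0.00726.

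Second was miR-31a-5p, at 82.7 to 254 RPM (median 129.6) in the amygdala and 52.1 to 122 RPM (median 66.4) in the ventral striatum. Of the 12 amygdala libraries 8 were above every ventral striatum library, and the difference was 0.96 ± 0.16 (SE), adjusted p = 0.00169. The other arm, miR-31a-3p, averaged under 2 RPM in both regions and was not called (0.32, adjusted p = 0.523). The precursor mir-31a differed by 0.95 ± 0.14 (SE), adjusted p = 0.000627.

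For miR-935 within Cacng8 the values were 17.1 to 44.02 RPM (median 30.6) in the amygdala and 9.81 to 22.3 RPM (median 16.7) in the ventral striatum, and 8 amygdala libraries exceeded the whole ventral striatum. Its difference was 0.72 ± 0.14 (SE), adjusted p = 0.00364. The arm miR-7a-2-3p had 38.7 to 85.6 RPM (median 63.7) in the amygdala and 32.1 to 62.4 RPM (median 37.2) in the ventral striatum, and 7 amygdala libraries were above the whole ventral striatum. It differed by 0.63 ± 0.14 (SE), adjusted p = 0.00584, while miR-7a-5p of the same hairpin, which is far more abundant and is shared by other mir-7 copies, differed by 0.06 (adjusted p = 0.905).

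The most abundant called miRNA was miR-146b-5p, of a family known for damping inflammatory signaling through Traf6 and Irak1. It had 24811 to 36386 RPM (median 33675) in the amygdala and 17498 to 31149.5 RPM (median 22374) in the ventral striatum, so that 7 amygdala libraries lay above and 7 ventral striatum libraries below the whole of the other region. The difference was 0.47 ± 0.11 (SE), adjusted p = 0.0084. The list of microglia and blood leukocyte miRNAs in which miR-146b-5p stands had 1 of 7 tested mature members called, beside 9.22% of all mature names tested. Of the 7, 6 were higher in the amygdala (median 0.14), beside 40.1% of all mature names (median -0.06). The other members of the list at more than 100 RPM, miR-146a-5p (0.20), miR-150-5p (0.14) and miR-142-5p (0.22), were not called. The part of those cells in the difference of miR-146b-5p was not tested.

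Other abundant names were called higher in the amygdala by smaller amounts. The neuronal miR-128-3p had 4369 to 7767 RPM (median 6076) in the amygdala and 3133 to 7576 RPM (median 4338) in the ventral striatum, with a single amygdala library above the ventral striatum and a difference of 0.44 ± 0.14 (SE), adjusted p = 0.0495. This was the called mature name nearest to the threshold, and without the 4 libraries that went against their labels it stood at 0.62 ± 0.11 (SE, adjusted p = 0.00243). Those libraries were picked after seeing levels that differ between the regions, so the smaller p is no support for the call. For miR-99a-5p the values were 2360.2 to 4509 RPM (median 2722) in the amygdala and 1817 to 2529 RPM (median 2251) in the ventral striatum, with 9 amygdala libraries above and 10 ventral striatum libraries below the whole of the other region, so the overlap was small. The difference was 0.44 ± 0.11 (SE), adjusted p = 0.0117. Further called were miR-676, from within the ectodysplasin gene Eda, at 0.42 ± 0.12 (SE), adjusted p = 0.0229, and miR-384-5p, which has the seed of the mir-30 family, at 0.17 ± 0.05 (SE), adjusted p = 0.0235. Both had overlapping regions. Other names called in this direction were miR-218a-5p (0.43), which is encoded within the axon guidance genes Slit2 and Slit3, miR-592 (0.71) within the glutamate receptor gene Grm8, miR-496-3p (0.82), miR-488-3p (0.26) and miR-664-3p (0.36). On the log2 scale miR-496-3p had the opposite sign in socially-enriched females, and miR-592 slightly so in non-enriched females.

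Neighboring hairpins on the X chromosome and on chromosome 19 held called names of one direction. Of the pair mir-221 and mir-222, all 3 tested mature arms were higher in the amygdala and 2 were called, miR-221-5p and miR-222-3p. The former had 27.4 to 59.2 RPM (median 48.5) in the amygdala and 21.6 to 43.6 RPM (median 33.7) in the ventral striatum, with a difference of 0.53 ± 0.12 (SE), adjusted p = 0.00787. The latter had 98.7 to 148 RPM (median 111) in the amygdala and 59.5 to 117 RPM (median 95.2) in the ventral striatum, with a difference of 0.33 ± 0.08 (SE), adjusted p = 0.0162. The regions overlapped in both. The abundant arm miR-221-3p, which shares its seed with miR-222-3p, differed by 0.19 (adjusted p = 0.373). Among the hairpins mir-23a, mir-27a and mir-24-2 of chromosome 19, miR-23a-3p was called at 0.36 ± 0.08 (SE), adjusted p = 0.00726 and miR-27a-3p at 0.30 ± 0.08 (SE), adjusted p = 0.021. For miR-23a-3p the range was 493 to 709 RPM (median 552) in the amygdala and 332 to 529 RPM (median 437) in the ventral striatum, with 7 amygdala libraries above and 10 ventral striatum libraries below all of the other region.

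Names that share a seed were set side by side. The 41 called names with a sequence held 41 different seeds, so no seed was called more than once, and 9 of them had a seed in common with another tested name. In each of those 9 groups the partners were not called. The chromosome 19 arms are an example, since their paralogs from the mir-23b cluster were not called, with 0.04 for miR-27b-3p against 0.30 for miR-27a-3p and 0.13 for miR-23b-3p against 0.36 for miR-23a-3p. The mir-27 sequences are almost the same along their whole length.
miR-27a-3p: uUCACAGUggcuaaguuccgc
miR-27b-3p: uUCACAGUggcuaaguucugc
Other such pairs were miR-146b-5p (0.47) beside miR-146a-5p (0.20), miR-103-3p (-0.30) beside miR-107-3p (-0.02) and miR-101b-3p (-0.53) beside miR-101a-3p (-0.18). The difference between partners was not tested, and reads that fit more than 1 name can be split between them in ways the sources used here do not describe.

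The 2 arms of a hairpin were compared where both were tested. Of 27 other arms of called names, 23 had the same sign and 4 were called, those of mir-489 and mir-653. Precursor names gave a largely parallel account: of 408 tested, 45 were called (11.0%), 19 higher in the amygdala (4.66%) and 26 higher in the ventral striatum (6.37%). After the same rescaling 48 precursors were called, 26 higher in the amygdala and 22 higher in the ventral striatum. In 4 pairs of called precursors (mir-31a and mir-31b, mir-409a and mir-409b, mir-3544 and mir-337, mir-218a-1 and mir-218b) one name was a fixed multiple of the other in every library, to a coefficient of variation of the ratio under 0.001, so the 45 calls held 41 separate measurements. A precursor called in the same direction existed for 38 of the 46 called mature names, and for none was one called in the other direction. Called precursors without a called arm numbered 8, of which mir-31b, mir-218b and mir-409a were such multiples of another called precursor. The most abundant of them was mir-148a, at 10468 ± 897 RPM in the amygdala and 14335 ± 2451 RPM in the ventral striatum and with a difference of -0.44 ± 0.07 (SE), adjusted p = 0.00158, whereas its arms had -0.27 for miR-148a-3p and -0.20 for miR-148a-5p (adjusted p = 0.0622 for both) at lower RPM. Precursor and mature values come from the same libraries and are not independent. By the methods of the study, RNA of about mature length was gel purified before sequencing. A precursor name is therefore a count of such short reads at a hairpin, and hairpin RNA itself was not measured.

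Groups of miRNAs were described by how many of their tested mature members were called, beside the 9.22% called over all mature names and the median difference of -0.06 over all of them. In the imprinted cluster of the maternal chromosome from mir-379 to mir-410, known for neuronal expression, 51 mature members were tested, of which 4 were called higher in the ventral striatum (miR-487b-3p, miR-369-3p, miR-323-3p and miR-543-3p) and 1 higher in the amygdala (miR-496-3p). Of the 51, 32 had negative differences, beside 59.9% of all mature names tested, with a median of -0.16. Among its 30 tested precursors 22 had negative differences, beside 58.3% of all precursors tested. Of these precursors 4 were called higher in the ventral striatum and none higher in the amygdala, with a median of -0.19 beside -0.05 over all precursors. Among the members counted here the share called was close to the background in both. The mir-409 names were not matched to this list and are missing from these counts. Of them, miR-409b (-0.37) and the precursors mir-409a (-0.34) and mir-409b (-0.34) were called higher in the ventral striatum, and miR-409a-5p (-0.10) was not called. Those precursors are a fixed multiple of one another. From the neighboring group antisense to Rtl1, 1 of 19 mature members was called, miR-337-3p (-0.46), and its most abundant member miR-127-3p differed by -0.04.

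Members of the mir-17 and mir-106b clusters, known for promoting cell division, held 1 called name of each kind, a share under the background. Negative differences were found for 13 of 16 mature members, beside 59.9% of all mature names tested (median -0.26) and for all 12 precursors, beside 58.3% of all precursors tested (median -0.26), and the called ones were miR-106b-3p (-0.45) and the precursor mir-18a (-0.71). The most abundant members, miR-25-3p (-0.21) and miR-93-5p (-0.23), were not. From the oligodendrocyte list all 4 tested mature members were negative (median -0.35), and 1 was called, miR-219a-2-3p at -0.50 ± 0.14 (SE), adjusted p = 0.0272, a miRNA known to promote oligodendrocyte maturation. It ranged from 616 to 1406 RPM (median 956) in the amygdala and 1025 to 1806 RPM (median 1509.7) in the ventral striatum. The more abundant miR-338-3p differed by -0.34 (adjusted p = 0.171), and the summed list ranged from 5509 to 10426 RPM (median 7726) in the amygdala and from 6414 to 16254 RPM (median 10568) in the ventral striatum.

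The families of mir-125, mir-99 and mir-100 had 8 of 10 mature members positive, beside 40.1% of all mature names tested (median 0.14), all 6 precursors positive, beside 41.7% of all precursors tested (median 0.22) and 1 mature and 1 precursor name called, those of mir-99a, a share near the background for the mature names. Of the neuronal list 23 mature members were tested and 2 were called, miR-128-3p and miR-218a-5p, both higher in the amygdala, with a median of 0.08. The neuronal miRNAs miR-124-3p (0.16), miR-9a-5p (0.07), miR-132-3p (-0.22) and miR-138-5p (-0.14) were not called. Neither was any of the 21 let-7 names, the 7 mir-181 names, the 6 mir-29 names or the 9 names of the endothelial and mural cell list. The mir-183, Hox, mir-135 and mir-322 clusters or families and that of mir-148 and mir-152 had no called mature name either, and the family of mir-130 and mir-301 had 1 of 5, miR-301a-3p (-0.35).

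**Figure D3:**
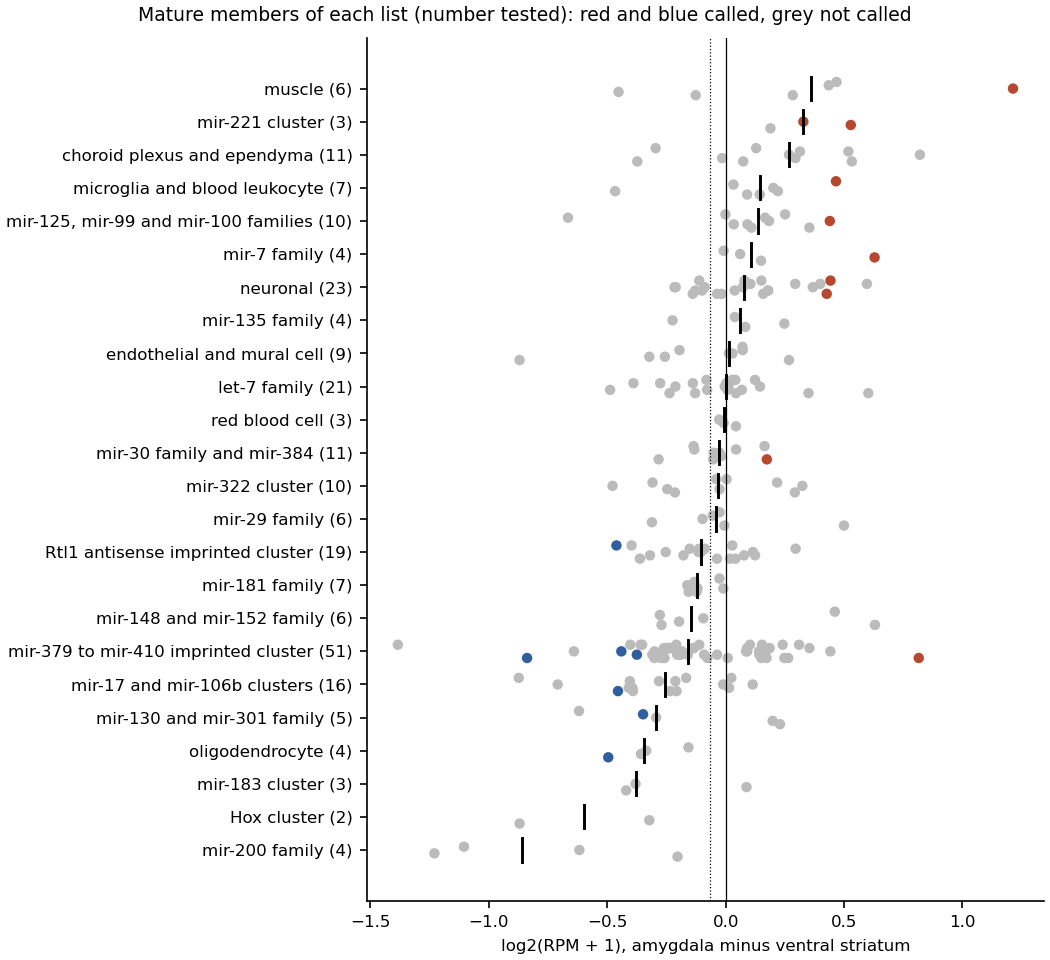
Each row is a list of miRNAs with its number of tested mature members, each point is a member at its difference in log2(RPM + 1), amygdala minus ventral striatum, the short black line is the list's median and the dotted line is the median of all mature names. The medians run from -0.86 for the mir-200 family to 0.36 for the muscle list, and no list had more than 4 members called in one direction.

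The most abundant miRNAs hardly set the regions apart. The 10 of highest mean held 60.02% of the mature signal, and miR-146b-5p was the only 1 of them called. At the top, miR-181a-5p ranged from 124748 to 174586 RPM (median 152280.0) in the amygdala and 123914 to 189618 RPM (median 168805) in the ventral striatum, with a difference of -0.12 (95% confidence interval -0.27 to 0.04). For the other 8 the differences lay between -0.13 (miR-191a-5p, adjusted p = 0.0746) and 0.08 (miR-26a-5p). The 95% intervals of the 10 went from -0.05 to 0.14 for miR-27b-3p, the narrowest, to -0.18 to 0.32 for miR-143-3p, the widest. Over the 505 mature names above 0 RPM in at least 6 libraries, libraries of one region correlated with a median of 0.978 and libraries of different regions with a median of 0.976.

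Markers of the choroid plexus, the tissue that secretes cerebrospinal fluid into the ventricles, and of ciliated ependyma set some amygdala libraries apart. Their summed mature level ranged from 3679 to 46819.5 RPM (median 10840.3) in the amygdala and from 4582 to 12479 RPM (median 7812) in the ventral striatum, and 6 of the 12 amygdala libraries were above every ventral striatum library. Of the 11 tested mature members of this list none was called by limma, and miR-449c-5p was at 0 in all 24 libraries. Positive differences were found for 8 of the 11 (median 0.27), beside 40.1% of all mature names tested. The leading member miR-204-5p had 3085 to 31896 RPM (median 8328) in the amygdala and 3789 to 6924 RPM (median 5222) in the ventral striatum, with a difference of 0.82 ± 0.43 (SE), adjusted p = 0.245. Without those 6 libraries 12 mature names were called, 3 higher in the amygdala and 9 higher in the ventral striatum, and 7 of them were among the 46. All 46 kept their sign, with a median ratio of 0.985 between the differences without and with those libraries, over 18 libraries in place of 24. The 7 were miR-489-5p, miR-653-5p, miR-187-3p, miR-3544, miR-764-3p, miR-592 and miR-133b-3p, and miR-764-3p then stood at -1.19 and miR-592 at 1.00. No longer called were miR-489-3p (-2.84, adjusted p = 0.0538), miR-31a-5p (0.62, adjusted p = 0.0985), miR-184 (1.43, adjusted p = 0.0538), miR-146b-5p (0.56, adjusted p = 0.0589) and miR-153-3p (-0.44, adjusted p = 0.0985), among others, and the part of choroid plexus in these differences was not tested. With the summed list as a covariate 50 mature names were called, 42 of the 46 among them. A similar removal of the 4 libraries under 600000 reads left 35 called, 28 of them among the 46.

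**Figure D4:**
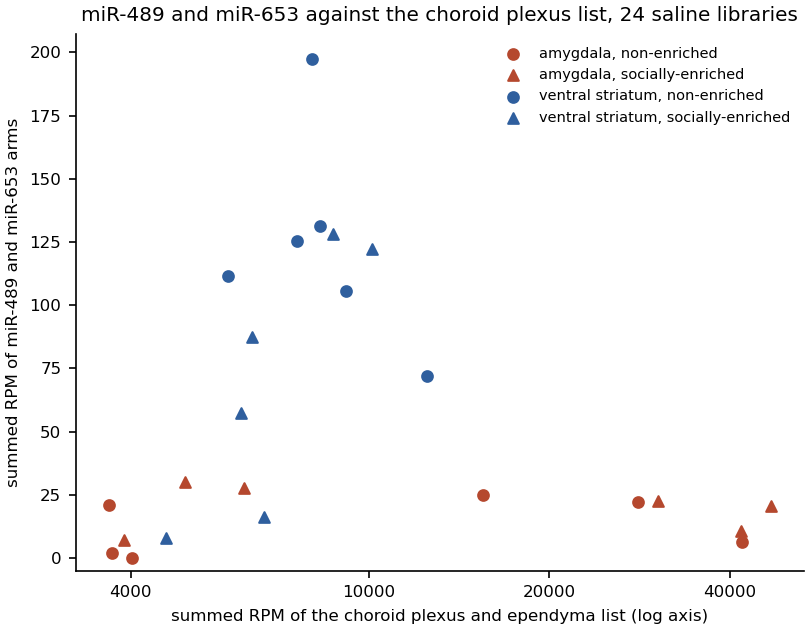
Each point is a saline library, with the summed RPM of the choroid plexus and ependyma list on a log axis and the summed RPM of the 4 miR-489 and miR-653 arms on the vertical axis. The arms stay at or under 30.0 RPM in all 12 amygdala libraries, whether the choroid plexus list is low or high, and 10 of 12 ventral striatum libraries lie above that.

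Markers of other cells were low or not called. Of the mir-200 family, which marks epithelia and olfactory neurons, 4 mature names were tested and none was called. All 4 were negative (median -0.86), beside 59.9% of all mature names tested. The family summed to 19.7 to 164 RPM (median 50.2) in the amygdala and 16.4 to 282 RPM (median 54.9) in the ventral striatum. In the muscle list miR-133b-3p was the 1 name called of 6, and the defining miR-1-3p and miR-206-3p averaged under 2 RPM in both regions. The red blood cell list summed to 15.3 to 56.9 RPM (median 28.6) in the amygdala and from 14.8 to 51.5 RPM (median 25.8) in the ventral striatum.

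Sex and housing did not change the region difference past the threshold for any name. All 46 called mature names had the same sign in females as in males and in socially-enriched as in non-enriched rats, although 41 kept one sign in all 4 combinations of sex and housing. Because the names were called on the average over these same libraries, equal signs largely follow from the selection and are no support. The test of the sex difference called 0 of 907 mature and precursor names in limma (0.0%), with 22 at an unadjusted p under 0.05, and 0 in a linear model of unlogged RPM. The test of the housing difference called 0 of 907 as well (0.0%), with 32 at an unadjusted p under 0.05 and 0 in the linear model. Within subsets of 6 libraries a side, 1 name was called in females (0.11%), 29 in males (3.2%), 0 in socially-enriched rats (0.0%, with 110 at an unadjusted p under 0.05) and 56 in non-enriched rats (6.17%), and since the tests of the differences called no name, these counts do not show that the subsets differ. The 4 libraries that went against their labels were all from socially-enriched rats, and without them the sex and housing tests called 0 of 900 names each in limma (51 and 38 at an unadjusted p under 0.05). The smallest p for sex belonged to mir-542-1 (-0.80 in females and 0.32 in males, adjusted p = 0.65) and miR-673-5p, and for housing to miR-351-3p, which was at or under 3 reads in every library, and mir-107 (-0.16 in socially-enriched and 0.12 in non-enriched rats, adjusted p = 0.992).

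The 24 ethanol libraries, from other rats, gave a separate measurement of the same difference. In a fit to all 48 libraries, 45 of the 46 mature names had the same sign in ethanol rats, and 34 of them were called there too, where 18.6% of the 532 mature names tested were called. For miR-489-3p the difference was -2.45 in ethanol rats, for miR-653-5p -2.95, for miR-187-3p -2.19, for miR-31a-5p 0.90 and for miR-184 1.29. Among the names not called there were miR-496-3p (0.19, adjusted p = 0.605), miR-592 (0.37, adjusted p = 0.24) and miR-764-3p (-0.42, adjusted p = 0.164). The test of the difference between saline and ethanol rats called 2 of 959 mature and precursor names (0.209%), miR-133b-3p and its precursor.

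**Figure D5:**
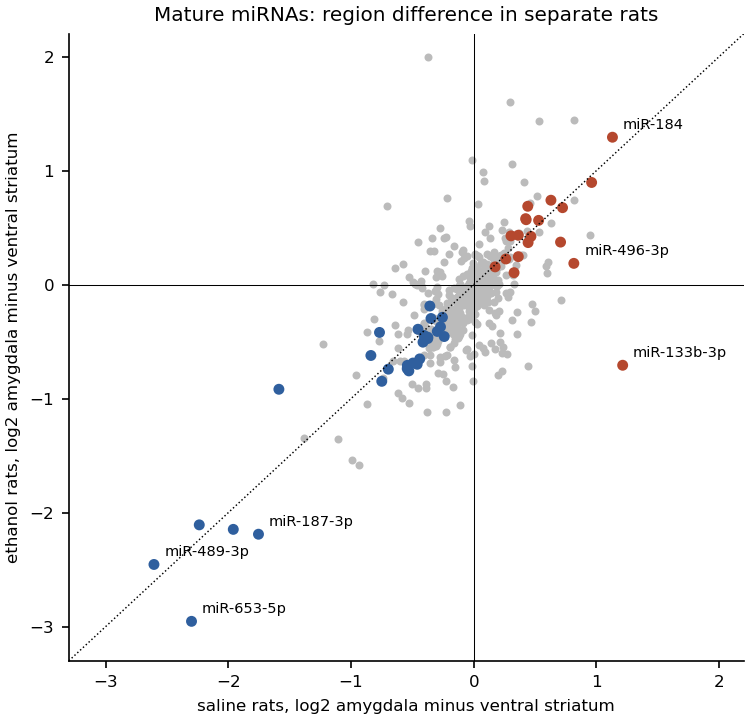
Each point is a mature miRNA, with its region difference in log2(RPM + 1) in the saline rats on the horizontal axis and in the ethanol rats on the vertical axis, and colors mark the names called in saline rats (red higher in the amygdala, blue higher in the ventral striatum). Of the 46 colored points 45 have the same sign on both axes, and the exception is miR-133b-3p, at 1.21 in saline and -0.71 in ethanol rats.

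The exception, miR-133b-3p, a muscle miRNA that has also been described in dopamine neurons, was read at the limit of detection. In saline rats it had 0.857 to 4.68 RPM (median 2.07) in the amygdala and 0 to 2.49 RPM (median 0) in the ventral striatum, and 1 amygdala library and no ventral striatum library held more than 3 reads. For this reason no fold is given. Its fitted difference was 1.21 ± 0.21 (SE), adjusted p = 0.00169 in saline rats, and the difference between saline and ethanol rats was 1.92 ± 0.38 (SE), adjusted p = 0.00913.

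Leaving out 1 library at a time, 35 of the 46 mature calls held in all 24 fits. Those near the threshold did not: miR-128-3p was called in 4 of the 24 fits, miR-218a-5p in 6, miR-106b-3p and miR-764-3p in 8 each, miR-337-3p in 9 and miR-219a-2-3p in 18, with adjusted p up to 0.0957 for miR-128-3p. Names called in the fits ranged from 36 to 56, and the highest count was found without the second male socially-enriched ventral striatum library, 1 of the 4 that went against their labels.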

How the data were processed

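Small RNA was measured in pools of 3 rats each. By the methods of the study, libraries were made with a TruSeq small RNA kit and gel purified, sequenced on a MiSeq, aligned with Bowtie to Rn5 in Partek Flow and counted against miRBase 21. The authors deposited a normalised signal, RPM, in which the mature and the precursor names each sum to 1000000 per library. Values far under 1 read occur, so reads that matched several names were divided, and no count test was run. Reads per library were estimated from the smallest RPM step shared by several names. The table held 1129 rows, of which 122 shared 56 names and were summed, giving 612 mature and 451 precursor names, and every column belonged to a sample.

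Names detected (over 0 RPM) in 6 or more of the 24 saline libraries were fitted together on the log2(RPM + 1) scale with limma 3.58.1 in R 4.3.3, with 8 groups of region, sex and housing, and the region contrast was averaged over sex and housing. Names without spread within groups were not tested, and 113 mature and 43 precursor names stayed untested in all. The p-values were adjusted over mature and precursor names by the Benjamini-Hochberg method. Tests of sex and housing were contrasts of this fit, and the test of prenatal treatment used all 48 libraries in 16 groups. Single values were compared by a two-sided permutation test with 100000 resamples (Python 3.11.15, numpy 2.4.6, pandas 2.3.3, scipy 1.17.1). The calculation was tested on simulated data.

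Names described singly were, among called names with at least 10 RPM in the higher region and one direction in all 4 groups of sex and housing, the 12 mature and 5 precursor names with the largest difference each way. To these were added the 10 most abundant mature names, the 5 most abundant called each way and the 2 with the smallest p of each interaction test. Other called names, the arms of the described hairpins and list members were given where a result turned on them, having been chosen after their values were seen. The members, the lists and these rules were chosen with earlier results of these data known. Alternatives concerned the pseudocount, the filter, the scaling, the model, the libraries included and a replicate block. Figures were drawn with matplotlib 3.10.9.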

Additional observations from a re-analysis of the deposited data

Results flagged for a closer look

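The region difference of miR-133b-3p was itself different between saline and ethanol rats, by 1.92 ± 0.38 (SE) in log2(RPM + 1) (limma interaction test, Benjamini-Hochberg adjusted p = 0.00913), with medians of 2.07 RPM in the amygdala and 0 RPM in the ventral striatum of saline rats and of 0 and 1.97 RPM in those of ethanol rats. Its precursor mir-133b differed likewise by 1.76 ± 0.35 (SE, adjusted p = 0.00913). Both names lay near or under 3 reads per library, and 1 of the 12 saline amygdala libraries held more than 3 reads of miR-133b-3p.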

How the results depend on the processing

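The limits are the 12 pools a region, the unknown sequencing sets and the depth, since names under about 10 RPM rest on few reads. Main counts of 46 mature and 45 precursor calls became 12 and 12 without the 6 amygdala libraries richest in the choroid plexus list, an alternative chosen after seeing the data that also has fewer libraries. Within females they were 0 and 1 (80 and 82 at an unadjusted p under 0.05), within males 15 and 14, within socially-enriched rats 0 and 0 (55 and 55 unadjusted) and within non-enriched rats 27 and 29. Without the 4 libraries that went against their region labels they were 72 and 74, with 0 calls of the sex and housing interactions in limma (51 and 38 unadjusted). Elsewhere counts ranged from 35 to 52 mature and from 42 to 54 precursor calls. Leaving out 1 library at a time gave 36 to 56 mature and 40 to 60 precursor calls (36 without male socially-enriched ventral striatum replicate 1, 40 without female non-enriched ventral striatum replicate 1, and 56 and 60 without male socially-enriched ventral striatum replicate 2), 2 to 3 calls of the prenatal interaction, 0 of the sex and housing interactions and 42 to 43 of 54 described names past the permutation test. Of the 54 described names 41 had been called by limma on the same libraries, so their passing the permutation test is no further support. With a mean of at least 10 RPM the prenatal interaction had 0 calls in limma (12 at an unadjusted p under 0.05), since miR-133b-3p was then not tested.

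Signs turned only in uncalled names near 0 among the 54. Under median-ratio rescaling miR-127-3p was 0.0029, miR-30a-5p 0.018 and mir-107 0.029. Without the choroid-rich libraries miR-30a-5p was 0.077, miR-673-5p -0.095 and mir-107 0.0091, and with the list as a covariate miR-30a-5p was 0.012. Without the libraries under 600000 reads miR-22-3p was 0.0069 and mir-107 0.0037. Without the 4 libraries that went against their labels miR-22-3p was 0.037 and mir-107 0.0024. Leaving out 1 library gave -0.0906 to 0.00486 for miR-127-3p, -0.0640 to 0.0249 for miR-30a-5p, -0.000225 to 0.209 for miR-673-5p and -0.0358 to 0.00688 for mir-107. The cause was not tested.

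The sources used here do not state whether libraries with the same replicate number share rats. Same-numbered libraries correlated in their deviations with a median of -0.14 (from -0.336 to 0.377, 4 of 12 over 0.1). Pairs of different number had a median of 0.054 (from -0.461 to 0.506, 9 of 24 over 0.1), and 4 of 24 libraries correlated best with their own number. The 4 libraries that went against their labels formed 2 same-numbered pairs. Whether rats were shared was not tested. With the replicate block 38 mature and 45 precursor names were called, 32 and 39 of them among the main calls. Not called with the block were miR-221-5p, miR-664-3p, miR-488-3p, miR-543-3p, miR-592, miR-653-3p, miR-320-3p, miR-219a-2-3p, miR-708-3p, miR-764-3p, miR-218a-5p, miR-337-3p, miR-106b-3p and miR-128-3p (adjusted p from 0.0517 to 0.114) and the precursors mir-488, mir-592, mir-21, mir-218a-1, mir-218b and mir-764.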
